A study of Oryctolagus cuniculus with 12 samples.

Results

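Hypertrophic scar (HS) of the rabbit ear was given a fluoropyrimidine in 2 ways, by a patch of drug-loaded microneedles (MNs) or by injection of 5-fluorouracil (5-Fu), and the transcriptomes after both were compared. The comparison used the 6 samples of these treatments, 3 in each group, out of the 12 samples of the series, chosen by their labels alone, and read the other 6 samples (3 of untreated HS and 3 of normal skin, NS) for reference. The wild-type rabbits were females of 10 to 12 weeks, and each group came from animals of its own, so that the groups differ in animals as well as in treatment. Scars followed resection of skin from the ventral ear. On days 22, 29 and 36 each scar was given either 1 patch of drug-loaded MNs or 0.1 mL of solution with 120 μg of 5-Fu. Tissue was harvested on day 43, a week after the last dose. HS lesions were left without either treatment, and NS ears were neither wounded nor treated. The patch carried 5-fluorouracil acetic acid, a derivative of 5-Fu that a peptide tied to the crosslinked gelatin of the needle tips, while the injection held free 5-Fu. Lesions given needles without drug were not analysed here, and the study describes the dose by patch as the lower one without giving the amount of drug in the patches used, so the drug form, the dose, the needles and the route cannot be told apart.

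A hypertrophic scar is an excess of fibroblast-made matrix, mostly type I and type III collagen with the glycoproteins that organise the fibrils, under an epidermis that often fails to mature in its usual order. 5-Fu is an antimetabolite: cells convert it to nucleotides that block thymidylate synthase and are built into RNA and DNA, which slows dividing fibroblasts and can also damage keratinocytes. The sequenced tissue held the full thickness of the ear, with epidermis, dermis and cartilage. In such bulk tissue, fewer cells of a type and less RNA per cell cannot be told apart.

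RNA was measured in FPKM, the fragments on a gene scaled by its length and by the size of the library. Differences are given as log2 fold changes of FPKM + 1, so they understate the change of genes near 0, and a positive value means a higher level after drug-loaded MNs. Each library held between 10796774 and 12729514 reads on genes among these 6 samples. Tests used limma on the 13287 genes whose mean FPKM over the 12 samples was at least 1, in 1 fit of all 12 samples. Marker genes of keratinocytes (12 of 12 tested), fibroblasts (13 of 13) and cartilage (18 in the table) were above 0 in every treated sample.

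No gene was a differentially expressed gene (DEG, limma adjusted p under 0.05 and a log2 fold change beyond 1 in size) between the patch and the injection: 0 of 13287, or 0%, with a smallest adjusted p of 0.161. Against the HS samples that both comparisons share, 1 gene was a DEG after drug-loaded MNs, with a higher level (0.00753% of those tested), while 68 were higher (0.512%) and 236 lower (1.78%) after the injection. The study used a method for read counts with the same cut-offs and reported more DEGs than here in each of these comparisons. The counts given here are thus those of limma on FPKM. At an unadjusted p under 0.05, 1083 genes were higher after drug-loaded MNs (8.15% of those tested) and 926 were lower (6.97%). The 3 values of one group lay entirely above the 3 of the other in 8.64% of genes for drug-loaded MNs and in 8.42% for the injection. Counts of list members below are to be read against these shares in the matching direction. The median gene had a 95% interval of its log2 fold change of 0.498 to either side, which is a 1.41-fold difference, so for such a gene a smaller difference would not have passed even the unadjusted threshold. Individual genes below are therefore described by their values and by unadjusted p, and their adjusted p is given where they are tested one by one.

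The injected samples were less alike than the drug-loaded MNs samples. Over the tested genes the root mean square difference between pairs of samples was 0.529 to 0.622 log2 units within the drug-loaded MNs group, 0.627 to 0.753 within the 5-Fu injection group and 0.611 to 0.766 between the groups. The mean difference of the injected samples from the 3 HS samples was 0.880 for replicate 1, 0.619 for replicate 2 and 0.820 for replicate 3, against 0.561 to 0.659 for the drug-loaded MNs samples. Each injected replicate stood apart in gene groups of its own, and these are given beside the results they touch: replicate 2 in matrix genes, replicate 1 in lymphocyte and ribosomal protein genes, and replicate 3 in genes of oxidative phosphorylation. The plot of list medians shows each group of genes with and without each of these samples.

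**Figure D1:**
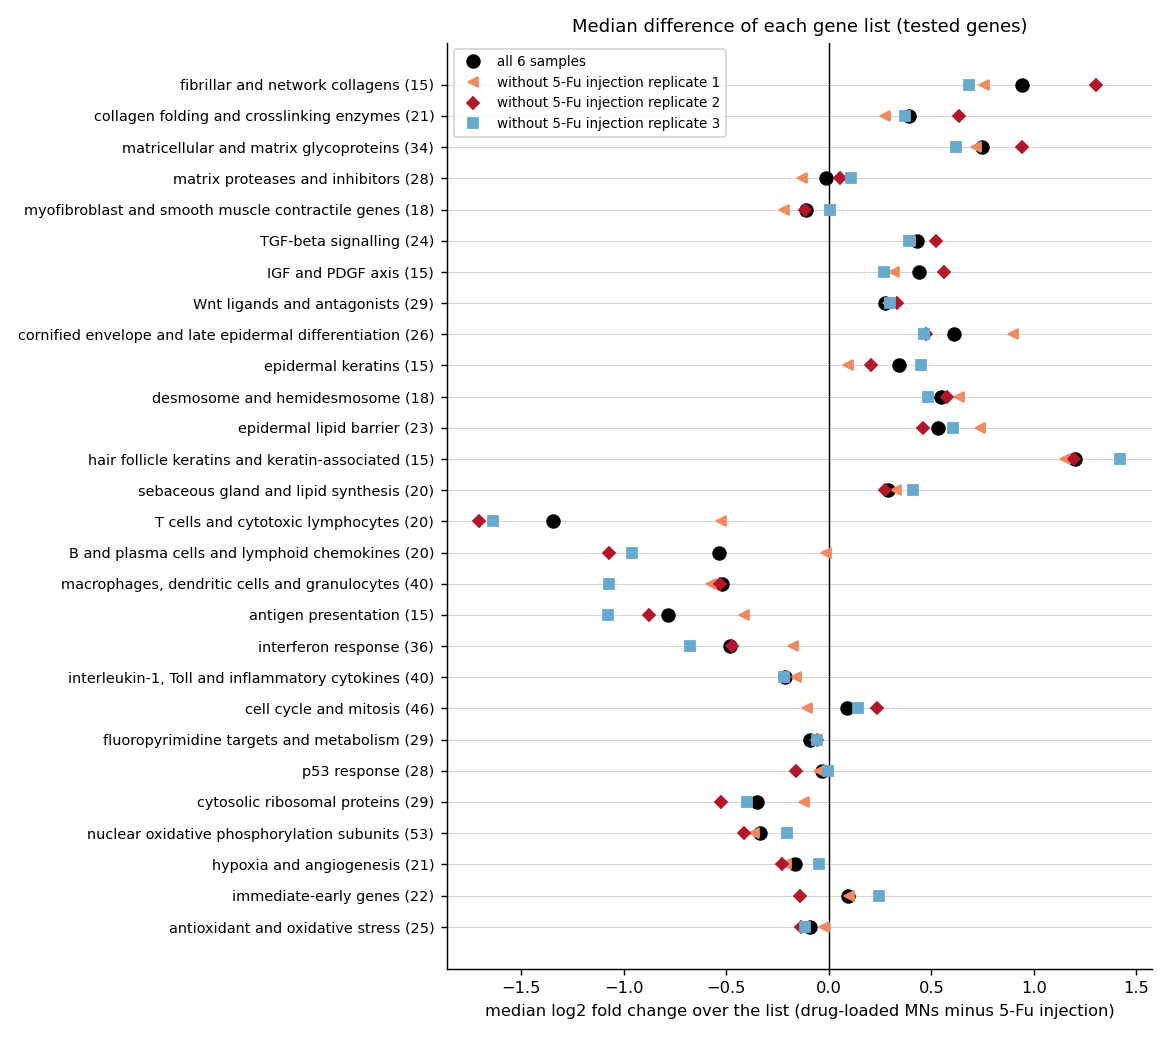
Median log2 fold change (horizontal axis, drug-loaded MNs minus 5-Fu injection) of the tested genes of 28 gene lists, with the number of tested genes in brackets. Black circles use all 6 samples, and the other symbols leave out 1 injected sample. Collagens lie at 0.94 with all samples and 1.30 without replicate 2, and T cell genes at -1.35 with all samples and -0.53 without replicate 1.

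Genes of the collagen scaffold were higher after drug-loaded MNs than after 5-Fu injection in 14 of the 15 tested fibrillar and network collagens, by a median log2 fold change of 0.94 against 0.00 over all tested genes. Of these 15 (16 of 19 listed were in the table), 9 had an unadjusted p under 0.05 and a higher level after drug-loaded MNs, a share to be read against 8.15% of all genes, and 0 a lower one, against 6.97%. The groups did not overlap in 2, COL12A1 and COL8A2, against 8.64% of all genes. COL1A1 encodes the main chain of type I collagen (ENSOCUG00000012881, chromosome 19 from 37474785 to 37489593 in the coordinates of the deposited table, whose genome build is not given in the sources used here). Its FPKM was 8139.6, 8253 and 5776 after drug-loaded MNs and 1053, 9219.9 and 1438 after 5-Fu injection, with 15711 ± 3134 (SD, n = 3) in HS and 772 ± 108 in NS. Injected replicates 1 and 3 thus lay nearer to NS than to the drug-loaded MNs samples, while injected replicate 2 lay above every drug-loaded MNs sample, and the groups overlapped (log2 fold change 1.60, standard error 0.64, unadjusted p = 0.0287, limma adjusted p = 0.299).

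The same split ran through other collagens. COL3A1, the fibrillar collagen of early scar, had an FPKM of 6557, 3987 and 3900.4 after drug-loaded MNs and 1283, 4609 and 1717 after 5-Fu injection (log2 fold change 1.11, standard error 0.44, unadjusted p = 0.0275, limma adjusted p = 0.296). COL12A1, a collagen found on the surface of fibrils, was at 110.3, 79.2 and 111 after drug-loaded MNs and 44.0, 68.8 and 35.3 after 5-Fu injection and kept the groups apart (log2 fold change 1.04, standard error 0.24, unadjusted p = 0.00123, limma adjusted p = 0.246). In 8 of the 15 collagens replicate 2 was the only injected sample above the lowest drug-loaded MNs sample, a pattern seen in 7.87% of all tested genes. Against the same HS samples, the list's median log2 fold change was -0.78 after drug-loaded MNs and -1.52 after the injection.

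Without injected replicate 2, 12 genes were DEGs (0.0903% of those tested), 10 higher after drug-loaded MNs (0.0753%) and 2 lower (0.0151%). Those higher included COL1A1 (log2 fold change 2.57, limma adjusted p = 0.0275 in that fit), COL1A2 (2.03, 0.0478), COL16A1 (1.46, 0.0275) and a gene without a symbol, ENSOCUG00000039234, whose product the table names as the alpha-3 chain of type VI collagen (2.15, 0.0275). ASPN, a small leucine-rich proteoglycan of the fibril surface, the fibroblast metalloprotease ADAM12, the collagen receptor subunit ITGA11, the collagen-binding receptor ANTXR1, the mechanically gated channel PIEZO2 and LIX1L made up the rest, at 1.23 to 2.86. The 2 lower genes were UPP1 and FGD3, described below. With 2 injected samples left, their spread was taken to be like that of the other groups, and the count was 0 when only the 5 remaining treated samples entered the fit, so these calls rest on the spread of HS and NS as well as on leaving out 1 rabbit.

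The matricellular and matrix glycoproteins, the proteins that decorate and space collagen fibrils, were higher after drug-loaded MNs in 33 of 34 tested genes (median 0.75). An unadjusted p under 0.05 was found in 15 (against 8.15% of all genes), and 5 did not overlap (against 8.64%). ASPN had an FPKM of 160.4, 82.5 and 130.3 after drug-loaded MNs and 16.2, 56.7 and 30.3 after 5-Fu injection, so that even injected replicate 2 lay below every drug-loaded MNs sample (log2 fold change 1.94, standard error 0.37, unadjusted p = 0.000257, limma adjusted p = 0.179). The thrombospondin THBS3 was at 43.1, 42.3 and 30.7 after drug-loaded MNs and 14.1, 19.5 and 11.0 after 5-Fu injection and the elastic fibre protein FBLN1 at 111, 149 and 122 after drug-loaded MNs and 55.3, 92.6 and 38.4 after 5-Fu injection, again without overlap. FBN1, the microfibril backbone, was at 116, 88.0 and 67.9 after drug-loaded MNs and 50.1, 68.3 and 35.4 after 5-Fu injection, where injected replicate 2 was within the range of the drug-loaded MNs group.

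**Figure D2:**
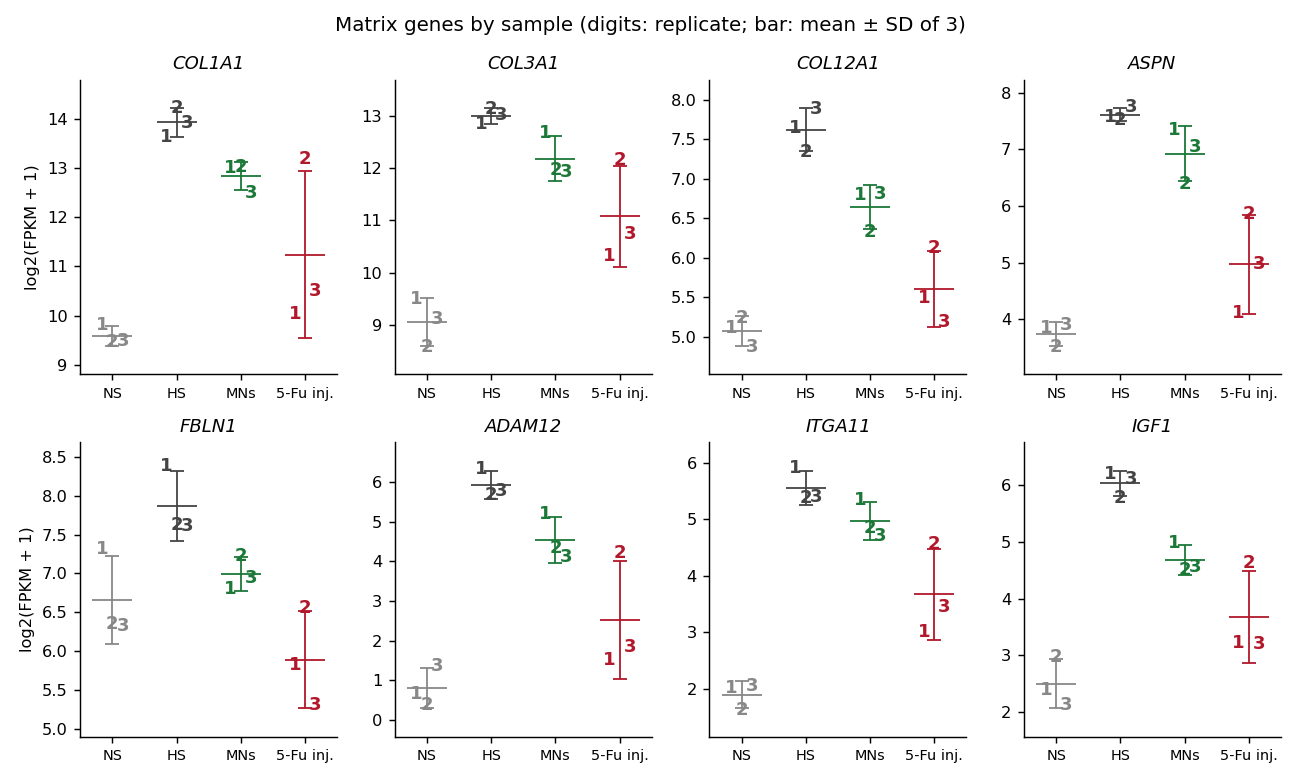
log2(FPKM + 1) of 8 matrix genes (vertical axis) in the 4 groups of 3 samples. Digits give the replicate and bars the mean ± SD. Injected replicate 2 lies with the drug-loaded MNs samples in COL1A1 and COL3A1, and the other injected samples lie between them and NS.

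Enzymes that fold and crosslink collagen were higher after drug-loaded MNs in 20 of 21 tested genes, by a smaller median of 0.39 (0.64 without injected replicate 2). Without injected replicate 2, 11 were higher at an unadjusted p under 0.05, against 9.75% of all genes in that fit. With all samples only 2 of the 21 reached that threshold, against 8.15% of all genes. The first was the procollagen N-proteinase ADAMTS2 (0.85 ± 0.34, unadjusted p = 0.0316, limma adjusted p = 0.306, log2 fold change ± standard error). The other carries the symbol ADAMTS14 (0.77 ± 0.33, unadjusted p = 0.0417, limma adjusted p = 0.318). Its annotated product is sphingosine-1-phosphate lyase 1, so symbol and product conflict and its identity is open. Matrix proteases and their inhibitors did not lean one way: 5 of 28 were higher and 1 was lower at that threshold, against 8.15% and 6.97% of all genes. Their median of -0.02 turned to 0.08 with quantile normalization and to 0.05 and 0.11 without injected replicates 2 and 3. Those higher included ADAM12, at 35.4, 19.1 and 16.1 after drug-loaded MNs and 1.86, 17.6 and 2.56 after 5-Fu injection (log2 fold change 2.02, standard error 0.60, unadjusted p = 0.00615, limma adjusted p = 0.25), and the aggrecanase ADAMTS5, PRSS35 and the gelatinase MMP2, at log2 fold changes of 0.89, 1.89 and 0.82. The lower one was the interstitial collagenase MMP1, at 11.4, 19.8 and 53.1 in the injected samples against 6.16, 13.9 and 7.94 in the drug-loaded MNs samples (log2 fold change -1.29, standard error 0.58, unadjusted p = 0.0478, limma adjusted p = 0.326). The contractile genes of myofibroblasts and smooth muscle had a median of -0.11, which was -0.22 without injected replicate 1 and 0.01 without replicate 3. ACTA2, the smooth muscle actin of myofibroblasts and vessel walls, was at 187, 187 and 239 after drug-loaded MNs and 221, 331 and 640.4 after 5-Fu injection, with a 95% interval of the log2 fold change of -2.05 to 0.40, which holds both directions. The 2 genes of this list with an unadjusted p under 0.05, against 8.15% of all genes, were the fibroblast adhesion genes ITGA11 (1.30) and CDH11 (1.00).

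Growth factor signalling genes of fibroblasts followed the matrix genes. For TGF-beta, the cytokine family that drives scar matrix, 20 of 24 tested genes were higher after drug-loaded MNs (median 0.43). Of these, 5 had an unadjusted p under 0.05 (against 8.15% of all genes) and 3 did not overlap (against 8.64%). The latter were 3 receptors: BMPR2, the type II receptor of bone morphogenetic proteins, at 15.1, 12.2 and 12.8 after drug-loaded MNs and 6.28, 9.46 and 6.61 after 5-Fu injection (log2 fold change 0.78, standard error 0.18, unadjusted p = 0.00113, limma adjusted p = 0.246), its partner BMPR1A (0.78) and the co-receptor TGFBR3 (0.78). In the IGF and PDGF axis 14 of 15 were higher (median 0.44, and 0.27 without injected replicate 3), and 4 passed the unadjusted threshold, against 8.15% of all genes. They were the ligand IGF1, at 30.6, 21.6 and 22.6 after drug-loaded MNs and 8.35, 23.6 and 8.21 after 5-Fu injection (log2 fold change 1.00, standard error 0.35, unadjusted p = 0.0166, limma adjusted p = 0.275), its receptor IGF1R (0.77), the binding protein IGFBP5 (0.78) and the adaptor IRS1, at 14.4, 15.96 and 11.5 after drug-loaded MNs and 6.88, 8.10 and 3.86 after 5-Fu injection. IGF1 showed the split of the collagens, with injected replicate 2 inside the range of the drug-loaded MNs samples, and IRS1 did not overlap between the groups. Among Wnt ligands, receptors and antagonists the median was 0.27 in 29 genes. At an unadjusted p under 0.05, 3 of them were higher and 1 was lower, against 8.15% and 6.97% of all genes. LGR5, a receptor for R-spondins that enhance Wnt signalling, was at 9.14, 12.7 and 15.9 after drug-loaded MNs and 1.07, 7.39 and 3.53 after 5-Fu injection without overlap (log2 fold change 1.63, standard error 0.40, unadjusted p = 0.00171, limma adjusted p = 0.246). The antagonist DKK3 (0.82) and the feedback gene AXIN2 (0.52) were also higher, while TCF7, a Wnt effector that T cells express as well, was lower (-0.63).

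Late epidermal differentiation was the second group that stood higher after drug-loaded MNs. Of 26 tested genes of the cornified envelope (38 listed), 25 had a higher mean after drug-loaded MNs (median 0.61). An unadjusted p under 0.05 was found in 5 (against 8.15% of all genes), and 5 did not overlap (against 8.64%). Without injected replicate 2, 2 were higher at that threshold, against 9.75% of all genes in that fit. HRNR encodes hornerin, a filaggrin-like protein of the outermost layers, and had no symbol in the table, which names its product (as for FLG2, DSG1, KRT86, CD247, CD37, CD40, CCL4 and some others below). Its FPKM was 33.4, 89.7 and 84.6 after drug-loaded MNs and 20.3, 1.58 and 0.506 after 5-Fu injection (log2 fold change 3.88, standard error 0.88, unadjusted p = 0.00102, limma adjusted p = 0.246). SERPINB12, a protease inhibitor of the skin surface, was at 25.9, 20.2 and 26.8 after drug-loaded MNs and 16.9, 5.85 and 0.991 after 5-Fu injection (log2 fold change 2.01, standard error 0.65, unadjusted p = 0.0103, limma adjusted p = 0.256). The keratinocyte caspase CASP14 reached 48.0, 42.4 and 141 after drug-loaded MNs and 56.7, 11.6 and 2.28 after 5-Fu injection, where injected replicate 1 was within the range of the drug-loaded MNs group (log2 fold change 2.33, standard error 0.90, unadjusted p = 0.0245, limma adjusted p = 0.294). These genes shared an order among the injected samples, with replicate 1 highest, and in 10 of the 26 replicate 3 was the lowest of the 6 treated samples, against 21.4% of all tested genes. The same genes were at a median log2 fold change of 1.27 from HS after drug-loaded MNs and of 0.67 after the injection, in comparisons that share the HS samples.

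Desmosomes, the junctions that hold keratinocytes together, were represented by genes that were also mostly higher after drug-loaded MNs. Of 18 tested genes of desmosomes and hemidesmosomes 17 were higher after drug-loaded MNs (median 0.55). An unadjusted p under 0.05 was found in 8 (against 8.15% of all genes), and 8 did not overlap (against 8.64%). DSC1, the desmocollin of the upper epidermis, was at 66.8, 97.8 and 181 after drug-loaded MNs and 53.1, 32.3 and 8.53 after 5-Fu injection (log2 fold change 2.05, standard error 0.60, unadjusted p = 0.00548, limma adjusted p = 0.25). DSG1, its desmoglein partner, was at 82.0, 106 and 182 after drug-loaded MNs and 71.2, 40.9 and 18.4 after 5-Fu injection (log2 fold change 1.60, standard error 0.49, unadjusted p = 0.00716, limma adjusted p = 0.25). PKP1, a plaque protein that links these cadherins to keratin filaments, was at 84.8, 111 and 129.9 after drug-loaded MNs and 77.2, 51.9 and 38.2 after 5-Fu injection (log2 fold change 0.99, standard error 0.30, unadjusted p = 0.0077, limma adjusted p = 0.25), and JUP, the plaque protein plakoglobin, at 163, 209 and 249 after drug-loaded MNs and 169, 125 and 111 after 5-Fu injection. In the first 3 of these the drug-loaded MNs samples lay wholly above the injected ones, and in JUP injected replicate 1 was above the lowest of them. Against HS the list's median was 0.89 after drug-loaded MNs and -0.10 after the injection.

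The lipid barrier of the stratum corneum is built from very long-chain ceramides. Of 23 tested genes of this list 20 were higher after drug-loaded MNs (median 0.53). An unadjusted p under 0.05 was found in 10 (against 8.15% of all genes), and 6 did not overlap (against 8.64%). Without injected replicate 2, 5 were higher at that threshold, against 9.75% of all genes in that fit, and 1 was lower, against 7.58%. ELOVL4, the elongase of very long fatty acids, was at 27.4, 31.4 and 36.9 after drug-loaded MNs and 23.7, 9.55 and 3.18 after 5-Fu injection (log2 fold change 1.67, standard error 0.49, unadjusted p = 0.006, limma adjusted p = 0.25). CYP4F22, which hydroxylates these fatty acids, was at 9.32, 9.66 and 21.9 after drug-loaded MNs and 8.46, 4.96 and 3.60 after 5-Fu injection (log2 fold change 1.09, standard error 0.33, unadjusted p = 0.00729, limma adjusted p = 0.25), and PNPLA1, which links them into acylceramide, at 3.07, 3.51 and 4.66 after drug-loaded MNs and 2.76, 1.03 and 0.911 after 5-Fu injection (log2 fold change 0.94, standard error 0.30, unadjusted p = 0.00917, limma adjusted p = 0.25). UGCG, the glucosylceramide synthase, had a log2 fold change of 0.83 with slight overlap. Injected replicate 3 was the lowest treated sample in 14 of the 23 genes, against 21.4% of all tested genes. Among epidermal keratins the median was 0.34 and 2 of 15 passed the unadjusted threshold, KRT80 (1.44) and KRT2 (1.07), against 8.15% of all genes. The median was 0.09 without injected replicate 1 and 0.21 without replicate 2, where 0 passed. KRT10, the keratin of the first differentiating layer, was at 1649, 2084 and 3385 after drug-loaded MNs and 2403, 1076 and 770.3 after 5-Fu injection, with overlap and a 95% interval of -0.16 to 1.86.

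The study named 12 hub genes of keratinocytes from these same samples, so their direction here is not independent evidence. All 12 had a higher mean after drug-loaded MNs than after 5-Fu injection, with log2 fold changes of 0.30 (EVPL) to 2.05 (DSC1) and a median of 0.92. For 9 the unadjusted p was under 0.05, against 8.15% of all genes. For 5 the groups did not overlap, against 8.64% of all genes: DSC1, DSG1, PKP1, SPINK5 and PNPLA1. In 11 of the 12 injected replicate 1 was the highest injected sample, as in CDSN, where it was above every drug-loaded MNs sample (150.0, 164 and 140.4 with the patch and 185, 69.2 and 40.6 with the injection). ABCA12, the lipid transporter of lamellar granules, was at 5.03, 6.33 and 7.58 with the patch and 5.70, 1.55 and 1.12 with the injection (log2 fold change 1.13, standard error 0.38, unadjusted p = 0.013, limma adjusted p = 0.261). FLG2, NIPAL4 and SPINK5 differed by 1.29, 0.85 and 0.79, and EVPL, at 0.30, had a 95% interval of -0.39 to 1.00.

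**Figure D3:**
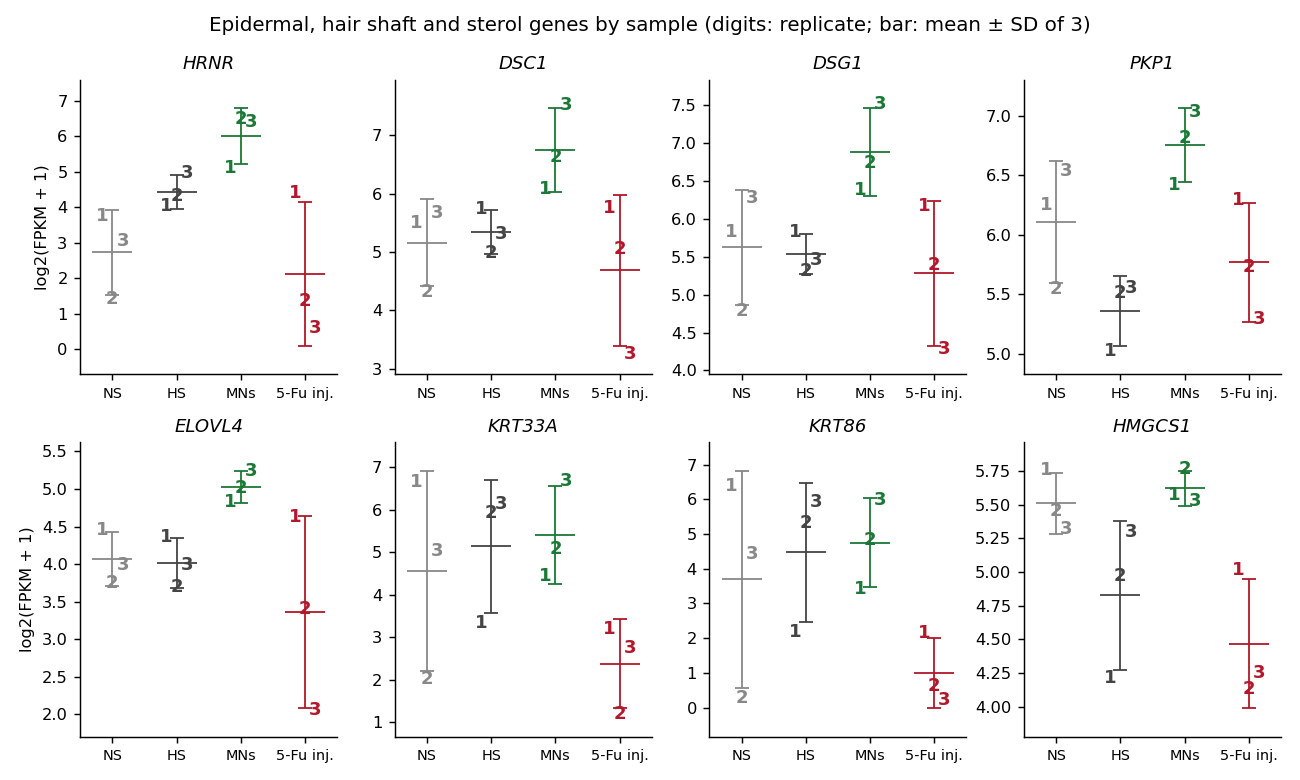
log2(FPKM + 1) of 8 epidermal, hair shaft and sterol synthesis genes (vertical axis) in the 4 groups of 3 samples. Digits give the replicate and bars the mean ± SD. The drug-loaded MNs samples lie above the injected ones in all 8 panels, and in the hair keratins KRT33A and KRT86 NS replicate 2 is as low as the injected samples.

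Hair shaft genes had the largest median among the lists that were higher after drug-loaded MNs. All 15 tested hair follicle keratins and related genes were higher after drug-loaded MNs (median 1.20). An unadjusted p under 0.05 was found in 6 (against 8.15% of all genes), and 7 did not overlap (against 8.64%). Without injected replicate 2, 1 was higher at that threshold, against 9.75% of all genes in that fit. KRT33A, a keratin of the hair cortex, was at 20.6, 32.97 and 102 after drug-loaded MNs and 8.16, 1.28 and 5.72 after 5-Fu injection (log2 fold change 3.02, standard error 1.12, unadjusted p = 0.0208, limma adjusted p = 0.284). KRT86 was at 9.72, 27.6 and 62.4 after drug-loaded MNs and 3.44, 0.531 and 0.170 after 5-Fu injection and KRT34 at 5.60, 10.3 and 25.9 after drug-loaded MNs and 0.856, 0.297 and 0.316 after 5-Fu injection, both hair shaft keratins. FOXN1, a transcription factor of the hair follicle and of differentiating keratinocytes, was at 5.09, 7.51 and 7.00 after drug-loaded MNs and 2.38, 3.49 and 2.13 after 5-Fu injection (log2 fold change 1.04, standard error 0.37, unadjusted p = 0.0167, limma adjusted p = 0.275). These genes also varied within NS and HS: the mean centred log2 level of the list was 0.88, -2.35 and 0.28 in NS, and it was -1.46, 1.45 and 1.77 in HS, against -0.18, 0.95 and 1.26 after drug-loaded MNs and -0.79, -1.09 and -0.70 after the injection. The spread among untreated ears was thus wider than the difference between the treatments.

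Keratin-associated proteins, which crosslink the hair keratins, made up much of the list of largest differences. KRTAP3-1 had the largest log2 fold change of all genes with a symbol whose groups did not overlap, at 52.4, 71.7 and 155 after drug-loaded MNs and 11.6, 0.654 and 1.67 after 5-Fu injection (log2 fold change 4.47, standard error 1.58, unadjusted p = 0.0164, limma adjusted p = 0.273). KRTAP11-1 and KRTAP17-1 were at log2 fold changes of 3.15 and 2.24. KRTAP6-1 and KRTAP20-1 passed the filter on low values only through the drug-loaded MNs group, so that they had to differ and their tests are not given. KRTAP20-1 was at 1.54, 5.10 and 8.01 after drug-loaded MNs and 0, 0.600 and 0 after 5-Fu injection and rested on 3, 10, 14 against 0, 1, 0 reads in the drug-loaded MNs and the injected samples.

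In the list of sebaceous gland and lipid synthesis genes 6 of 20 were higher after drug-loaded MNs at an unadjusted p under 0.05 (median 0.29), against 8.15% of all genes. Without injected replicate 2, 3 were, against 9.75% of all genes in that fit, and 2 were lower, against 7.58%. With all samples the 1 lower gene at that threshold was MGST1, a membrane glutathione transferase (-0.42), named after its values were seen. The genes of smallest p that are described here did not overlap. HMGCS1, which makes the precursor of mevalonate, was at 46.6, 53.5 and 45.02 after drug-loaded MNs and 31.3, 16.5 and 18.1 after 5-Fu injection (log2 fold change 1.15, standard error 0.29, unadjusted p = 0.00189, limma adjusted p = 0.246). SQLE, the squalene epoxidase of cholesterol synthesis, was at 55.4, 50.6 and 70.2 after drug-loaded MNs and 31.9, 26.6 and 43.4 after 5-Fu injection (log2 fold change 0.79, standard error 0.20, unadjusted p = 0.00209, limma adjusted p = 0.246). LSS, which acts later in the cholesterol pathway, was at a log2 fold change of 0.53.

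Lymphocyte genes were lower after drug-loaded MNs than after 5-Fu injection, and the size depended on 1 injected sample. Of 40 listed T cell and cytotoxic lymphocyte genes 32 were in the table and 20 passed the filter on low values. The mean behind that filter includes injected replicate 1, so weak members could pass it through that sample. The listed genes summed to an FPKM of 1102 there, against 157 and 188 in the other injected samples and 54.1 to 128 after drug-loaded MNs. This favours the counts of direction and of the highest sample below, and its part in them was not tested. All 20 were lower on average after drug-loaded MNs (median -1.35), 10 at an unadjusted p under 0.05, against 6.97% of all genes, and 8 without overlap, against 8.42%. Injected replicate 1 was the highest of the 6 treated samples in 20 of the 20 genes, against 18.6% of all tested genes. Without it the median was -0.53. HCST, the signalling adaptor of activating killer cell receptors, was at 188, 60.9 and 64.4 in the injected samples against 32.5, 14.2 and 16.9 in the drug-loaded MNs samples (log2 fold change -2.13, standard error 0.62, unadjusted p = 0.00561, limma adjusted p = 0.25). The co-stimulatory receptor CD27 was at 26.8, 5.34 and 8.46 in the injected samples against 3.51, 2.85 and 1.42 in the drug-loaded MNs samples (log2 fold change -1.77, standard error 0.52, unadjusted p = 0.00569, limma adjusted p = 0.25). ZAP70, the kinase next to the T cell receptor, was at 25.1, 5.46 and 5.62 in the injected samples against 3.22, 2.04 and 2.17 in the drug-loaded MNs samples (log2 fold change -1.59, standard error 0.54, unadjusted p = 0.0136, limma adjusted p = 0.261), and CD247, the zeta chain of that receptor, was at 13.1, 2.93 and 3.16 in the injected samples against 1.85, 0.586 and 1.97 in the drug-loaded MNs samples. In each of these the other 2 injected samples were also above every drug-loaded MNs sample, by less. CD3E, another chain of the receptor, was at 5.03, 2.21 and 3.495 after drug-loaded MNs and 41.6, 5.72 and 4.62 after 5-Fu injection, with overlap (log2 fold change -1.40, standard error 0.72, unadjusted p = 0.0777, limma adjusted p = 0.378).

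Of 20 tested genes of B cells, plasma cells and lymphoid chemokines (MS4A1 was below the filter) 17 were lower after drug-loaded MNs (median -0.54, with -0.01, -1.07 and -0.96 without injected replicates 1, 2 and 3). As in the T cell list, weak members could pass the filter through injected replicate 1. The listed genes summed to an FPKM of 2740 there and to 815 and 984 in the other injected samples. The 3 at an unadjusted p under 0.05, against 6.97% of all genes, also serve other leukocytes. LTB, the membrane lymphotoxin subunit, was at 103, 31.5 and 21.4 in the injected samples against 7.24, 9.54 and 12.5 in the drug-loaded MNs samples (log2 fold change -2.003, standard error 0.55, unadjusted p = 0.00364, limma adjusted p = 0.25). The tetraspanin CD37 and the receptor CD40 were at log2 fold changes of -1.01 and -0.95, all 3 without overlap. CCL19, the chemokine that draws T cells and dendritic cells, was at 66.1, 17.9 and 49.7 in the injected samples against 19.5, 8.05 and 2.96 in the drug-loaded MNs samples (log2 fold change -2.15, standard error 1.00, unadjusted p = 0.0541, limma adjusted p = 0.34), where 1 drug-loaded MNs sample was above an injected one. Against HS, T cell genes were at a median of 0.31 after drug-loaded MNs and 1.69 after the injection.

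Myeloid genes were lower after drug-loaded MNs in 29 of 40 tested genes (median -0.52). Of these, 13 had an unadjusted p under 0.05 (against 6.97% of all genes) and 10 did not overlap (against 8.42%). In the other direction 1 gene was higher at that threshold (against 8.15%). CD14, the endotoxin co-receptor of monocytes and macrophages, was at 151, 149 and 119 in the injected samples against 76.9, 69.9 and 45.8 in the drug-loaded MNs samples (log2 fold change -1.13, standard error 0.34, unadjusted p = 0.00687, limma adjusted p = 0.25). TYROBP, an adaptor of myeloid activating receptors, was at 703, 725 and 494 in the injected samples against 344, 251 and 273 in the drug-loaded MNs samples (log2 fold change -1.14, standard error 0.37, unadjusted p = 0.0108, limma adjusted p = 0.258). PRAM1, an adaptor of granulocytes, was at 12.2, 21.6 and 13.8 in the injected samples against 5.03, 2.43 and 2.28 in the drug-loaded MNs samples (log2 fold change -2.01, standard error 0.47, unadjusted p = 0.00125, limma adjusted p = 0.246), and the neutrophil chemokine receptor CXCR1 was at 2.60, 7.18 and 3.96 in the injected samples against 1.22, 0.603 and 0.978 in the drug-loaded MNs samples. CSF3R, the receptor of the neutrophil growth factor, was at 2.29, 32.2 and 7.04 in the injected samples against 1.19, 0.655 and 0.824 in the drug-loaded MNs samples (log2 fold change -2.35, standard error 0.85, unadjusted p = 0.0181, limma adjusted p = 0.278). Injected replicate 1 was the highest treated sample in 15 of the 40 genes, against 18.6% of all tested genes. Replicate 2 was the highest in 12, against 12.9%, among them CXCR1, PRAM1 and CSF3R. Without replicate 2, 7 of the 40 were lower at the unadjusted threshold, against 7.58% of all genes in that fit, and 3 higher, against 9.75%. The list's median was -1.07 without injected replicate 3.

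In antigen presentation injected replicate 1 was the highest treated sample in 12 of 15 genes, against 18.6% of all tested genes. All 15 tested genes were lower after drug-loaded MNs (median -0.78), 5 at an unadjusted p under 0.05 (against 6.97% of all genes) and 7 without overlap (against 8.42%). The median was -0.41, -0.88 and -1.07 without injected replicates 1, 2 and 3. PSMB8, an immunoproteasome subunit, was at 301, 129 and 117 in the injected samples against 84.0, 65.2 and 53.2 in the drug-loaded MNs samples (log2 fold change -1.31, standard error 0.44, unadjusted p = 0.0132, limma adjusted p = 0.261). CD74, the chaperone of MHC class II, was at 2339.8, 1612 and 1204 in the injected samples against 1079, 802 and 868 in the drug-loaded MNs samples (log2 fold change -0.86, standard error 0.30, unadjusted p = 0.0136, limma adjusted p = 0.261). CIITA, the transcriptional switch of class II genes, and PSMB10 were at log2 fold changes of -0.94 and -1.20.

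Interferon response genes separated the groups less. Of 36 tested genes 28 were lower after drug-loaded MNs (median -0.48), yet 0 had an unadjusted p under 0.05 in either direction. Injected replicate 1 was the highest treated sample in 20 of the 36, against 18.6% of all tested genes, and without it the median was -0.17. ISG15, a ubiquitin-like protein that interferon induces, was at 57.8, 42.4 and 35.1 in the injected samples against 40.1, 5.41 and 9.29 in the drug-loaded MNs samples, with a 95% interval of -4.06 to 0.67. IRF7, a transcription factor of the response, was at 99.5, 22.2 and 20.4 after drug-loaded MNs and 206, 76.0 and 78.5 after 5-Fu injection. HERC5 and GBP5 were at log2 fold changes of -0.71 and -0.84 with adjusted p of 0.435 and 0.556 by limma. Drug-loaded MNs replicate 1 was the high sample of its group in both ISG15 and IRF7.

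Among the genes with a symbol, NFKBIA had the smallest p. It encodes the inhibitor that holds NF-kappaB in the cytoplasm and is itself induced by that factor (ENSOCUG00000015642, chromosome 17 from 55106578 to 55109740). Its FPKM was 108, 137 and 115 in the injected samples against 58.4, 48.8 and 59.6 in the drug-loaded MNs samples (log2 fold change -1.10, standard error 0.16, unadjusted p = 3.34e-05, limma adjusted p = 0.161), with 48.1 ± 0.996 in HS and 87.5 ± 19.7 in NS (SD, n = 3). All injected samples thus lay above all drug-loaded MNs samples, which were near HS, and without injected replicate 2 the log2 fold change was -0.998 (limma adjusted p = 0.0627). The rest of the list of interleukin-1, Toll receptor and cytokine genes was mixed, with 2 of 40 higher and 4 lower after drug-loaded MNs at an unadjusted p under 0.05 (median -0.22). Over all genes these shares were 8.15% and 6.97%. IL36G, an interleukin-1 family cytokine of keratinocytes, was higher, at 27.9, 30.3 and 29.1 after drug-loaded MNs and 19.95, 10.7 and 11.7 after 5-Fu injection (log2 fold change 1.04, standard error 0.31, unadjusted p = 0.00674, limma adjusted p = 0.25), as was the signal adaptor TRAF6 (0.66). IRAK2, a kinase of the same pathway (-0.61), and CCL4, a chemokine of activated leukocytes (-2.03), were lower. The chemokine receptor CCR1 and IDO1, a tryptophan-degrading enzyme that interferon induces, were also lower, at log2 fold changes of -1.98 and -2.01.

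**Figure D4:**
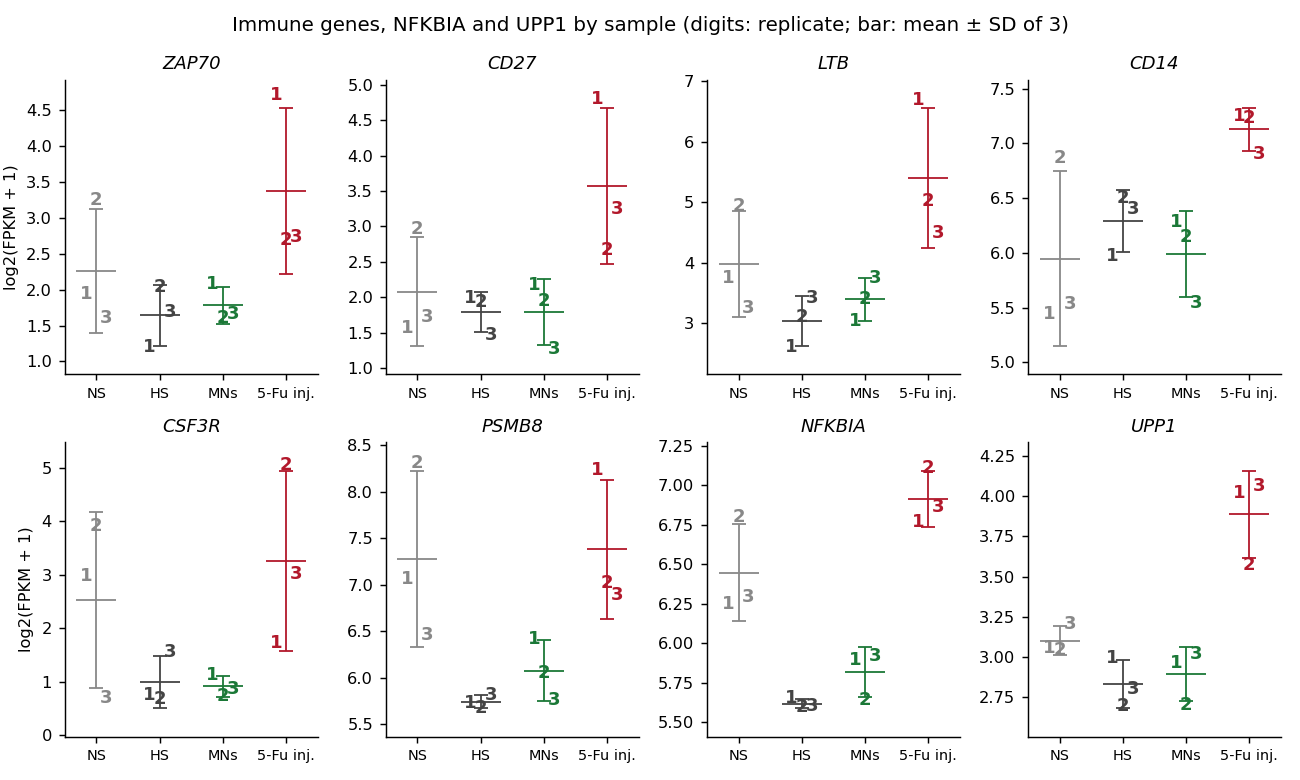
log2(FPKM + 1) of 6 leukocyte genes, NFKBIA and UPP1 (vertical axis) in the 4 groups of 3 samples. Digits give the replicate and bars the mean ± SD. All injected samples lie above all drug-loaded MNs samples in each panel, replicate 1 is far above the others in ZAP70 and CD27, and replicate 2 in CSF3R.

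Genes on which fluoropyrimidines act gave no common direction, and UPP1 stood out among them. Of 38 listed genes of fluoropyrimidine targets, activation, breakdown and repair 35 were in the table and 29 were tested (median -0.09). At an unadjusted p under 0.05, 1 was higher and 3 were lower after drug-loaded MNs, against 8.15% and 6.97% of all genes. UPP1 encodes uridine phosphorylase, an enzyme that can convert 5-Fu into its nucleoside (ENSOCUG00000014902, chromosome GL018745 from 170344 to 207226, an unplaced scaffold). It was at 15.2, 10.9 and 15.7 in the injected samples against 6.79, 5.51 and 7.11 in the drug-loaded MNs samples, without overlap (log2 fold change -0.99, standard error 0.17, unadjusted p = 0.000102, limma adjusted p = 0.161), and in HS at 6.14 ± 0.752 (SD, n = 3). It was a DEG without injected replicate 2 (-1.15, limma adjusted p = 0.0478). FPGS, which adds glutamates to folates, was at 4.84, 8.91 and 7.94 in the injected samples against 3.03, 3.03 and 4.25 in the drug-loaded MNs samples (log2 fold change -0.87, standard error 0.23, unadjusted p = 0.00301, limma adjusted p = 0.25). CDA, a deaminase of cytidine and its analogues, was at 3.08, 1.32 and 2.81 in the injected samples against 0.282, 0.280 and 1.99 in the drug-loaded MNs samples (log2 fold change -0.96, standard error 0.36, unadjusted p = 0.0225, limma adjusted p = 0.292) with overlap. TDG, a glycosylase that removes mispaired thymine and 5-Fu from DNA, was at 19.4, 18.5 and 16.3 after drug-loaded MNs and 15.2, 14.4 and 13.5 after 5-Fu injection (log2 fold change 0.31, standard error 0.12, unadjusted p = 0.0256, limma adjusted p = 0.295). TYMS, the main target of the drug, had no value of its own, since 2 genes of the table carry its protein name.

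The genes of proliferation and DNA damage gave no common direction. Of 46 tested cell cycle genes 0 had an unadjusted p under 0.05 in either direction (median 0.09, and -0.11 without injected replicate 1). MKI67, which marks cycling cells, was at 7.96, 5.34 and 11.5 after drug-loaded MNs and 4.17, 9.40 and 7.05 after 5-Fu injection, with a 95% interval of -0.48 to 0.95. TTK and TOP2A, of the spindle checkpoint and of DNA untangling, had intervals of -0.08 to 0.95 and -0.24 to 1.06. Among 28 p53 response genes 2 were higher and 2 lower at an unadjusted p under 0.05 (median -0.03), against 8.15% and 6.97% of all genes. CDKN1A, the cell cycle inhibitor p21, was at 63.5, 37.3 and 57.5 after drug-loaded MNs and 63.2, 41.7 and 76.1 after 5-Fu injection, with an interval of -0.83 to 0.46. TP53INP1 (0.58) and ZMAT3 (0.53) were higher and the pro-death gene BBC3 (-0.61) and GADD45A (-0.46) lower. Tissue was taken a week after the last dose, and earlier times were not analysed here.

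Of 53 tested nuclear subunits of oxidative phosphorylation 52 were lower (median -0.33). An unadjusted p under 0.05 was found in 15 (against 6.97% of all genes), and 13 did not overlap (against 8.42%). NDUFS3, a core subunit of complex I, was at 135, 148 and 174 in the injected samples against 117, 109 and 121 in the drug-loaded MNs samples (log2 fold change -0.39, standard error 0.13, unadjusted p = 0.00993, limma adjusted p = 0.251), and UQCRQ, of complex III, was at 105, 112 and 146 in the injected samples against 79.4, 74.3 and 102 in the drug-loaded MNs samples (log2 fold change -0.50, standard error 0.17, unadjusted p = 0.0128, limma adjusted p = 0.261). SDHB of complex II and ATP5ME of the ATP synthase were at log2 fold changes of -0.39 and -0.64. Injected replicate 3 was the highest treated sample in 43 of the 53 genes, against 22.2% of all tested genes, and without it the median was -0.20. The 13 protein genes of the mitochondrial genome were all lower as well, at log2 fold changes of -1.497 to -0.61, 8 of them at an unadjusted p under 0.05, against 6.97% of all genes. Injected replicate 1 lay below every drug-loaded MNs sample in ND4L and ND5. It lay below the highest of them in ATP6, ATP8, COX1, CYTB, ND2 and ND4. In other genes, such as ND1 and COX3, it lay above all of them. ND4L was at 1169, 1026 and 1086 after drug-loaded MNs and 973, 2264 and 2528 after 5-Fu injection. Mitochondrial genes took 4.34% to 5.41% of the reads on genes after drug-loaded MNs and 5.50% to 10.7% after the injection (exact permutation test, two-sided p = 0.1, the smallest that 3 samples against 3 can give). Of 29 tested ribosomal protein genes all were lower (median -0.35), 2 at an unadjusted p under 0.05, RPS29 (-0.71) and RPS21 (-0.56), a share close to the 6.97% of all genes. Injected replicate 1 was the highest treated sample in 26 of the 29, against 18.6% of all tested genes, and without it the median was -0.12.

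The difference over all tested genes also moved with gene length. When the tested genes were ranked by the length that the table gives and cut into 5 bins of about equal size, the median log2 fold change ran from -0.14 in the shortest bin (median length 507 bases) through -0.06, -0.01 and 0.03 to 0.13 in the longest (4502 bases). Of the shortest genes 4.70% were higher and 10.5% lower after drug-loaded MNs at an unadjusted p under 0.05, and of the longest 13.7% and 3.20%. The gap between the longest and the shortest bin in the centred log2 level was 0.11, 0.13 and -0.10 for drug-loaded MNs, whereas the injected samples gave -0.13, -0.10 and -0.35, so that drug-loaded MNs replicate 3 lay with the injected samples and injected replicate 3 furthest out. The part of this trend in the results above was not tested beyond its removal. With the trend removed from each sample by a lowess curve, the list medians were -0.24 for oxidative phosphorylation, -0.28 for ribosomal proteins, 0.80 for collagens, 0.67 for matrix glycoproteins, 0.47 for desmosomes and -1.33 for T cells.

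**Figure D5:**
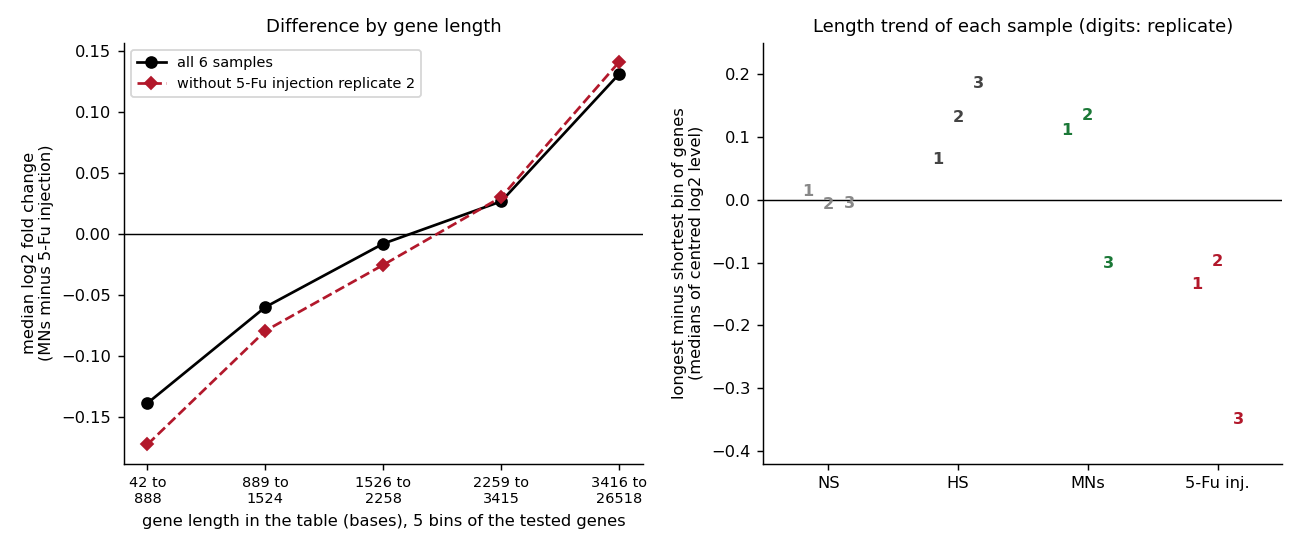
Left, the median log2 fold change of the tested genes (vertical axis) in 5 bins of gene length in bases (horizontal axis), with all 6 samples and without injected replicate 2, rising from -0.14 to 0.13 with all samples. Right, the longest minus the shortest bin in the centred log2 level of each sample, with digits for the replicate, where injected replicate 3 is lowest at -0.35.

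The remaining genes with a symbol and the smallest p came from several functions. C19orf38, a gene of myeloid cells, was at 21.4, 22.9 and 17.2 in the injected samples against 5.49, 8.14 and 7.38 in the drug-loaded MNs samples (log2 fold change -1.43, standard error 0.22, unadjusted p = 4.31e-05, limma adjusted p = 0.161). ABTB1 was at 34.7, 38.2 and 30.9 in the injected samples against 15.97, 16.8 and 19.5 in the drug-loaded MNs samples (log2 fold change -0.95, standard error 0.16, unadjusted p = 7.39e-05, limma adjusted p = 0.161). FGD3, which activates the GTPase CDC42, was at 12.0, 6.56 and 8.87 in the injected samples against 3.62, 2.72 and 2.64 in the drug-loaded MNs samples (log2 fold change -1.32, standard error 0.22, unadjusted p = 8.83e-05, limma adjusted p = 0.161). C1orf162 was at 97.3, 137 and 156 in the injected samples against 24.6, 21.4 and 24.1 in the drug-loaded MNs samples (log2 fold change -2.40, standard error 0.44, unadjusted p = 0.000206, limma adjusted p = 0.179), near its HS level of 32.8 ± 9.17 (SD, n = 3) in the drug-loaded MNs samples. In each of these the groups did not overlap. CCDC9, IGFLR1, FLOT1 and PET100 were lower, at log2 fold changes of -0.79, -1.02, -0.67 and -0.96.

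Higher after drug-loaded MNs with small p were NFIB, a transcription factor of skin and hair follicle development, at 9.44, 7.08 and 8.10 after drug-loaded MNs and 4.80, 3.22 and 3.44 after 5-Fu injection (log2 fold change 0.94, standard error 0.17, unadjusted p = 0.000163, limma adjusted p = 0.179), and the ubiquitin ligase LNX2, at 8.07, 7.08 and 7.08 after drug-loaded MNs and 3.24, 3.97 and 3.83 after 5-Fu injection (log2 fold change 0.85, standard error 0.15, unadjusted p = 0.000121, limma adjusted p = 0.161). EPHB2, a receptor of ephrins, was at 7.20, 10.1 and 8.49 after drug-loaded MNs and 2.70, 4.15 and 1.57 after 5-Fu injection (log2 fold change 1.38, standard error 0.27, unadjusted p = 0.0003, limma adjusted p = 0.198). UBXN2A, SELENOI, RIC1 and SERINC5 were higher, at log2 fold changes of 1.30, 0.86, 0.79 and 0.79. None of these genes overlapped between the groups. Among genes of large difference, CMA1, the chymase of mast cells, was at 3.77, 9.09 and 16.5 after drug-loaded MNs and 0.603, 1.76 and 0.874 after 5-Fu injection (log2 fold change 2.22, standard error 0.47, unadjusted p = 0.000562, limma adjusted p = 0.241), with 14.9 ± 6.21 in HS (SD, n = 3). PLAC8, found in leukocytes and epithelia, was at 168, 169 and 35.6 in the injected samples against 31.9, 13.5 and 6.93 in the drug-loaded MNs samples (log2 fold change -2.71, standard error 1.10, unadjusted p = 0.0311, limma adjusted p = 0.306). The phosphate hormone FGF23 was at 14.3, 15.9 and 52.8 in the injected samples against 12.0, 2.61 and 1.95 in the drug-loaded MNs samples (log2 fold change -2.22, standard error 0.61, unadjusted p = 0.00377, limma adjusted p = 0.25). The small RNA genes OCU-MIR-186 (2.68), OCU-MIR-27B (-2.15) and SNORA48 (-1.999) were also among the largest differences. They are short and rested on few reads (1, 1, 0 against 4, 5, 6 for OCU-MIR-27B in the drug-loaded MNs and the injected samples).

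Marker genes of the cell types of the ear were compared in the same way. Fibroblast markers were higher after drug-loaded MNs (median 0.79, 8 of 13 at an unadjusted p under 0.05, against 8.15% of all genes). This list shares COL1A1, COL3A1 and others with the matrix lists. Their summed FPKM was 19489 to 28105 after drug-loaded MNs and 5581 to 27368 after the injection. Keratinocyte markers had a median of 0.36 (2 of 12, against 8.15% of all genes), with a summed FPKM of 3976 to 9284 after drug-loaded MNs and 3104 to 5731 after the injection. The part of keratinocyte and fibroblast numbers in the epidermal and matrix results was not tested. Endothelial markers were lower (5 of 18, against 6.97% of all genes, median -0.20), with a summed FPKM of 816 to 917 after drug-loaded MNs and 1068 to 1331 after the injection. PECAM1, the adhesion molecule of endothelial junctions, was at 105, 103 and 132 in the injected samples against 81.1, 68.0 and 82.6 in the drug-loaded MNs samples (log2 fold change -0.54, standard error 0.15, unadjusted p = 0.00372, limma adjusted p = 0.25). PLVAP, which forms the diaphragms of fenestrated capillaries, was at 375, 343 and 510.2 in the injected samples against 241, 233 and 286 in the drug-loaded MNs samples (log2 fold change -0.67, standard error 0.18, unadjusted p = 0.00275, limma adjusted p = 0.249). Medians were 0.45 for cartilage, -0.32 for adipocytes, -0.42 for Schwann cells and nerve, -0.27 for melanocytes, -0.20 for skeletal muscle and 0.03 for the 3 tested erythrocyte genes. Leaving out injected replicate 2 turned the cartilage median to -0.11. Leaving out replicate 3 gave 0.05 for melanocytes, 0.08 for skeletal muscle, -0.01 for adipocytes and -0.21 for erythrocytes, and without replicate 1 the median of Schwann cells and nerve was -0.14. In these 6 lists at most 1 gene in each direction passed the unadjusted threshold.

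Stress programmes were close to even. Of 21 genes of hypoxia and angiogenesis 1 was higher at an unadjusted p under 0.05, against 8.15% of all genes, and 0 were lower, against 6.97%. The higher one was the vessel growth factor VEGFA, at 10.3, 12.7 and 12.5 after drug-loaded MNs and 9.75, 9.30 and 6.21 after 5-Fu injection (log2 fold change 0.46, standard error 0.21, unadjusted p = 0.0469, limma adjusted p = 0.324). The list's median was -0.17 (-0.05 without injected replicate 3). Among 25 antioxidant genes 2 were lower at an unadjusted p under 0.05, against 6.97% of all genes, with a list median of -0.09. They were SRXN1, which repairs peroxiredoxins (-0.63), and KEAP1, the sensor that restrains the antioxidant response (-0.32). Immediate-early genes, which answer to growth factors and to handling of tissue, had a median of 0.09 (-0.14 without injected replicate 2). At an unadjusted p under 0.05, 3 of 22 were higher, EGR3 (1.31), FOSL2 (0.74) and KLF6 (0.47), against 8.15% of all genes. The 1 lower gene was FOSL1 (-0.82), against 6.97%.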

How the data were processed

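Full thickness ear tissue of 12 rabbits' samples (4 groups of 3) was measured by bulk RNA-seq. The authors deposited 1 table of FPKM values for 29587 genes, and the aligner, counter and genome build are not given in the sources used here. Multiplied by gene length, 100% of values were whole multiples of the value of 1 read (tolerance 0.05 reads), so reads were counted back; they ran from 10521472 to 14043667 per sample. The library sizes behind the FPKM values were 0.873 to 1.198 times these reads, so they include a scaling between samples.

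Genes averaging an FPKM of 1 or more over the 12 samples (13287) were tested as log2(FPKM + 1) with limma 3.58.1 (R 4.3.3), 4 groups in 1 fit, empirical Bayes with trend and Benjamini-Hochberg adjustment. Same-numbered samples came from different rabbits, and their deviations correlated at -0.0156, 0.18 and 0.0349, so the numbers do not pair them. Of the genes without a symbol, 133 were named by the table's protein name. This name had to be unique or be shared with no other gene averaging an FPKM of 1 or more. In all, 28 gene lists and 9 marker lists (1123 genes, 803 tested) were used. Members, lists and alternatives were chosen with earlier results of these data known. Named genes were, among those with a symbol, the ones without overlap and with an unadjusted p under 0.05 of largest difference (12 per direction) and the 10 of smallest p per direction. Added to these were up to 4 per list by p with some fixed markers, the 12 hub genes of the study and the DEGs without injected replicate 2. The length trend was removed with lowess curves, an alternative chosen after seeing the data. The labels name no batch.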

Additional observations from a re-analysis of the deposited data

How the results depend on the processing

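The count of DEGs was 0 with all samples under a pseudocount of 0.1, a stricter mean FPKM of 5, rescaling to total reads, quantile normalization, only the treated samples in the fit, no trend, limma voom on the reads and removal of the length trend, and 1 without a filter on low values. Leaving out 1 sample at a time gave 0 to 12, with 12 without injected replicate 2, and 1 without NS replicate 2 (C1orf162) and without drug-loaded MNs replicate 1 (KRTAP20-1, which passed the filter only through the drug-loaded MNs group). Without injected replicate 2, limma voom gave 25 DEGs, 12 of them shared with the 12 of the main test, removal of the length trend gave 10, all shared, and a fit of the treated samples alone gave 0. The cause was not tested. In the fit with a replicate block the count was 0, with 961 genes higher and 836 lower at an unadjusted p under 0.05, and the block changed no call. Genes with an unadjusted p under 0.05 and higher after drug-loaded MNs numbered 563 to 1295 over the fits without 1 sample, the lowest without injected replicate 3, and those lower numbered 640 to 1152. Without 1 sample at a time the log2 fold change ran from -0.423 to 0.0437 for CDKN1A, from -0.0379 to 0.483 for MKI67 and from -1.99 to 1.26 for S100A8, both directions in each, and that of EVPL was -0.0738 without injected replicate 2 and with the length trend removed. With 3 rabbits a group, one site of injury and one harvest, the p-values carry only the spread between these animals, and near an FPKM of 1 a gene of 1 kilobase held 10.3 to 13.01 reads.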

Other observations

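Some genes were chosen here after their values were seen. S100A8, a subunit of calprotectin in neutrophils and stressed keratinocytes, varied widely within both groups, with an FPKM of 1152, 43.7 and 4021 after drug-loaded MNs and 161.8, 1162 and 3865 after 5-Fu injection. The 95% interval of its log2 fold change ran from -5.64 to 4.43. SELP, the adhesion molecule that endothelium shows to leukocytes, was at 16.6, 106 and 103 in the injected samples against 20.9, 24.9 and 19.03 in the drug-loaded MNs samples, so that 2 injected samples were above and 1 was below all drug-loaded MNs samples (log2 fold change -1.37, standard error 0.60, unadjusted p = 0.0445, limma adjusted p = 0.321).

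KRTAP6-1 and KRTAP20-1, described above, had low levels outside the treated groups. KRTAP20-1 was at 0 in all NS and HS samples and above 0 in all drug-loaded MNs samples, and KRTAP6-1 was at 0.728 ± 0.334 in HS and 0.553 ± 0.670 in NS (SD, n = 3), against 7.02, 14.6 and 7.82 after drug-loaded MNs and 3.04, 0.820 and 0 after 5-Fu injection.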
